A study of Mus musculus with 48 samples.

Results

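The 10 genes described here encode proteases that act at the cell surface, inhibitors with Kunitz domains and receptors that proteases switch on. They are the Kunitz-type inhibitors Spint1, Spint2 and Tfpi, the proteases St14, Prss8 and Plat, the coagulation cofactors F3 and Thbd, and the protease-activated receptors F2r and F2rl1. They were taken by symbol from a table of 49671 genes, and were selected on these same cells, Spint1 for a higher level in presumptive epiblast (pEPI) and Tfpi and F2r for a higher level in presumptive primitive endoderm (pPrE). The levels of the members in the pEPI and pPrE cells are therefore given as a description, without a test. All 10 genes had counts, and 8 of them reached a mean of 1 FPKM over all cells (FPKM, read counts scaled to exon length and library size); Plat and Thbd did not.

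The 48 cells came from the inner cell masses (ICMs) of 3 mouse blastocysts at E3.75, and every cell stands for the same untreated condition. The embryos came from natural matings of mice with a Pdgfra H2B-GFP allele and F1 hybrids of C57BL/6J and CBA/J. By the methods of the study each embryo was heterozygous for the H2B-GFP cassette at the Pdgfra locus, whereas the sample titles call every cell WT. The outer trophectoderm was removed by immunosurgery, the ICM was dissociated with Accutase and trypsin, and each cell was made into a Smart-seq2 library, which copies whole transcripts into cDNA and tags no single molecules. No label gives the embryo of a cell, so the 48 cells are 1 sample without replicates, and each SD is the spread between cells. Of these cells, 25 lay on the pEPI and 23 on the pPrE branch of the dendrogram in the study, whose leaf names were read by eye.

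A cell had 1718970 to 7342785 counts on genes, with a median of 3751329 in pEPI and 4251373 in pPrE. The branches were described with a score made from 10 pPrE markers such as Gata4 and Sox17 and 9 pEPI markers such as Nanog and Klf2. None of these markers is a member. The lowest and highest scores were -2.81 and 0.57 among pEPI cells and 0.07 and 2.09 among pPrE cells. The sign of the score matched the branch in 45 of 48 cells. A grouping of all variable genes other than markers and members into 2 Ward clusters matched the branch in 39 of 48 cells. The pPrE-side cluster of 32 cells took in 9 pEPI cells. The dendrogram was made from variable genes of these same cells, so these matches and the marker ratios that follow are no independent check. All 10 of the pPrE markers tested were at least 2-fold higher in pPrE (median log2 ratio 2.49) and 5 of the 9 pEPI markers at least 2-fold higher in pEPI (median -1.83). Over all 10880 genes with a mean of at least 1 FPKM the median log2 ratio was 0.00. Markers of trophectoderm, the outer layer, had a summed level of 16.2 to 181.8 FPKM in pEPI and 4.37 to 120.2 FPKM in pPrE, and Cdx2 had counts in 2 pEPI and 1 pPrE cells, whereas the keratin gene Krt8 had counts in 24 pEPI and 22 pPrE cells (mean 34.3 FPKM) and Tspan8 in 19 and 15 (mean 9.52 FPKM). Of 11 such markers 6 were tested, 2 of them at least 2-fold higher in pEPI and 1 in pPrE. Kdm5d, Uty, Eif2s3y and Ddx3y, which lie on the Y chromosome, together reached 100 counts in 29 cells (17 pEPI, 12 pPrE). They did not in the other 19 (8 pEPI, 11 pPrE). Sex, embryo and any batch between embryos cannot be told apart in this split, so results are also given within it. All 9 pEPI cells in the pPrE-side Ward cluster were among the 17 with Y-linked counts. They include A3, E5 and E7, the pEPI cells with a positive score.

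Matriptase, the product of St14, is a serine protease anchored in the plasma membrane of epithelial cells, and works in a local cascade with prostasin, the product of Prss8. HAI-1 and HAI-2, the products of Spint1 and Spint2, are transmembrane proteins whose Kunitz domains block both proteases, and mice that lack Spint1 or Spint2 die before birth. TFPI blocks the start of coagulation by binding factor Xa and the complex of factor VIIa with tissue factor, the product of F3. PAR1 and PAR2, the products of F2r and F2rl1, are receptors coupled to G proteins that are activated when a protease cuts their extracellular end; thrombin is the classical activator of PAR1, and trypsin-like proteases, matriptase among them, activate PAR2. Tissue-type plasminogen activator, the product of Plat, is a marker of the parietal endoderm that later arises from PrE.

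The stretches before the starts of Spint1, Tfpi and F2r are shown because the pEPI and pPrE sides of the comparison rest on these genes. Each is 250 bases, read 5′ to 3′ on the strand of the gene, and ends at the base before the RefSeq start (build GRCm38.p6). Capitals mark matches on either strand to GATAA (a core motif of GATA factors), TGANTCA (AP-1), GGGCGG (a GC box) or TATAAA.

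Spint1, chr2:119237110-119237359, plus strand: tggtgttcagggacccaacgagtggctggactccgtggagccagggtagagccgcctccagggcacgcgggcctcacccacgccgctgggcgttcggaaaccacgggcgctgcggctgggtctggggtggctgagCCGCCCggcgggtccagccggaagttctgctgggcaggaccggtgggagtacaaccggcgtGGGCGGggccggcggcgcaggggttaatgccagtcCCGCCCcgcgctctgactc
Tfpi, chr2:84476760-84477009, minus strand: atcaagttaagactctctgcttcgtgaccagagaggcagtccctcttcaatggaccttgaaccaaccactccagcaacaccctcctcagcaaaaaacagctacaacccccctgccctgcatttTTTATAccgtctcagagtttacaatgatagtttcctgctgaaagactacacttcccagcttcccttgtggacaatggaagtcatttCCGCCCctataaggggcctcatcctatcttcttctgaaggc
F2r, chr13:95618467-95618716, minus strand: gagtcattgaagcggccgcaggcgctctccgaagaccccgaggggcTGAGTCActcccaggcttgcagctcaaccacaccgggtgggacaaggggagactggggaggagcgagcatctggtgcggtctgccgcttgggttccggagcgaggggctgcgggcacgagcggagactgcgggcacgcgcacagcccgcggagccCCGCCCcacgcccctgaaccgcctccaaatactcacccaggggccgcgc

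Spint1 had 3 matches to GGGCGG and F2r had 1, beside a match to TGANTCA whose first base lay 204 bases before the start. Tfpi had 1 match to GGGCGG and 1 to TATAAA, the latter 127 to 122 bases before the start and on the other strand. None of the 3 windows held GATAA; a second RefSeq start of Tfpi, chr2:84474175-84474424, had 1 match. Of 32851 windows of the same length, 32.7% held GGGCGG, 22.6% GATAA, 12.4% TATAAA and 6.75% TGANTCA. The window of Spint1 was 72.8% G and C and that of F2r 70.8%, against a median of 52.4% over all windows, whereas that of Tfpi was 48.4%. Windows were at hand for 5 of the 10 members, and those of Spint2 and F3 were also rich in G and C (69.6% and 70.0%). A match of letters is a description of the sequence and shows no bound factor.

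Among the inhibitors, Spint1 was higher in pEPI, Tfpi was higher in pPrE and Spint2 differed by less than 2-fold. Spint1 (ENSMUSG00000027315) lies on chromosome 2 from 119237362 to 119249527, plus strand (GRCm38, as all positions of genes here). In pEPI it ranged from 25.7 to 220 FPKM with a median of 127.6, and was counted in 25 of 25 cells. In pPrE it ranged from 0 to 111.8 FPKM with a median of 46.9, and was counted in 22 of 23 cells. The ranges overlapped, and the single cell without a count, in well D1, was the shallowest of the 48. The mean was 128 ± 53.6 FPKM (SD, n = 25 cells) in pEPI and 47.3 ± 24.7 FPKM (SD, n = 23 cells) in pPrE, which is 2.71-fold lower in pPrE (log2 ratio -1.44, 95% counting interval -1.47 to -1.41). This difference of means was larger than the SD of either branch. Spint1 was past the 2-fold threshold, as were 9.03% of all tested genes on the pEPI side; the members were chosen on this contrast, so nothing is read from that share.

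Spint2 (ENSMUSG00000074227, chromosome 7, 29256323 to 29281912, minus strand) encodes the related inhibitor HAI-2 and was counted in every cell. Cells of pEPI held 29.8 to 98.3 FPKM (median 54.1) and cells of pPrE 15.6 to 64.4 FPKM (median 39.9). The ranges of the branches overlapped widely, though with each pPrE cell set against each pEPI cell, pPrE was higher in only 20% of the pairs. The mean was 58.3 ± 17.9 FPKM (SD, n = 25) in pEPI and 40.6 ± 12.3 FPKM (SD, n = 23) in pPrE (log2 ratio -0.52). These means differed by less than the SD of pEPI and by more than that of pPrE. Both inhibitors were lower in pPrE by the mean, Spint1 past 2-fold and Spint2 within it.

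Tfpi (ENSMUSG00000027082, chromosome 2, 84432855 to 84476775, minus strand) had the opposite direction. In pEPI it ranged from 0 to 18.6 FPKM with a median of 2.69, and 19 of 25 cells had a count (76.0%, exact binomial 95% interval 54.9% to 90.6%). In pPrE it ranged from 4.92 to 177.5 FPKM with a median of 57.6, and 23 of 23 cells had a count. The branches met between 4.92 and 18.6 FPKM, and when each pPrE cell was set against each pEPI cell, pPrE was higher in 95.3% of the pairs. The means of 4.85 ± 5.58 FPKM (SD, n = 25) and 60.9 ± 45.5 FPKM (SD, n = 23) stood 12.6-fold apart (log2 ratio 3.65, 95% counting interval 3.59 to 3.71), more than the larger SD. Of the 10880 tested genes, 6.2% were at least 2-fold higher in pPrE, and Tfpi was number 84 of them by fold.

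**Figure D1:**
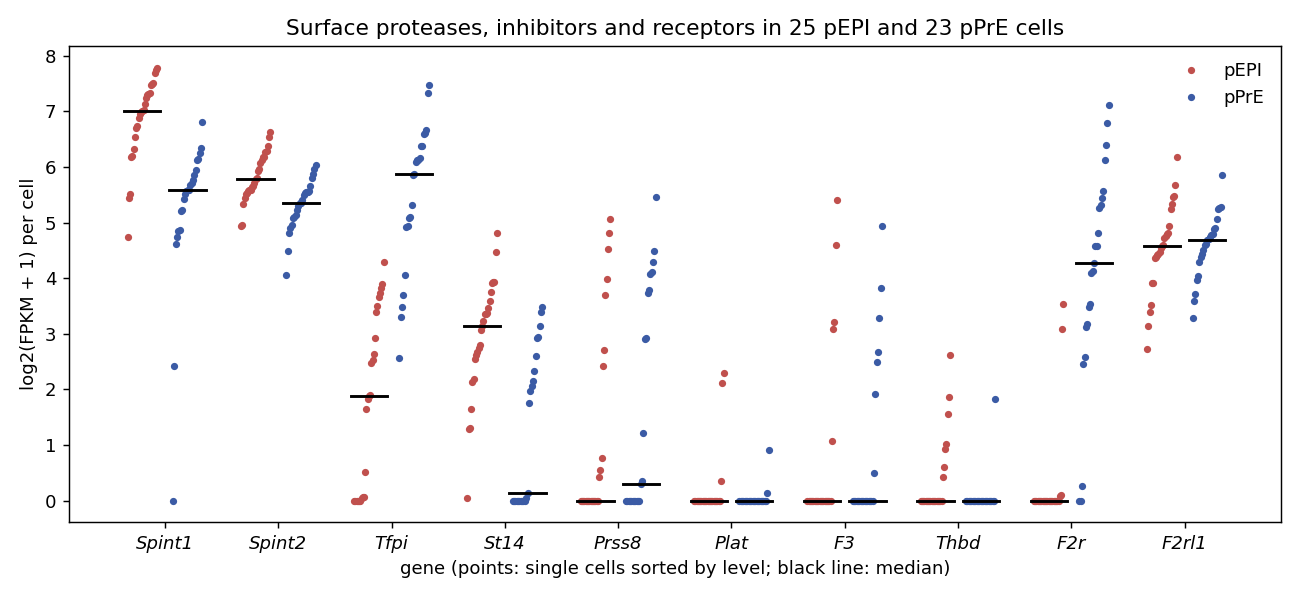
Level of each member in single cells, as log2(FPKM + 1) on the vertical axis; every point is 1 cell (red, 25 pEPI; blue, 23 pPrE), sorted by level within a branch, and black lines are medians. Spint1 is higher in pEPI, Tfpi and F2r are higher in pPrE, F2rl1 and Spint2 overlap widely, and Prss8, Plat, F3 and Thbd are at 0 in many cells.

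Of the proteases that reached a mean of 1 FPKM, St14 was past 2-fold and Prss8 was not. St14 (ENSMUSG00000031995, chromosome 9, 31089402 to 31131853, minus strand) ranged from 0.027 to 27 FPKM in pEPI with a median of 7.83, and 25 of 25 cells had a count. In pPrE it ranged from 0 to 10.2 FPKM with a median of 0.095, and only 13 of 23 cells had a count (56.5%, interval 34.5% to 76.8%). The pPrE cells thus included cells with St14 inside the range of pEPI and cells with none, and the ranges overlapped. The mean of 8.59 ± 6.26 FPKM (SD, n = 25) in pEPI and 2.69 ± 3.40 FPKM (SD, n = 23) in pPrE gave a log2 ratio of -1.68 (counting interval -1.75 to -1.61), past 2-fold, though the difference was smaller than the SD of pEPI. Depth moved with St14 within pPrE: the Spearman correlation of its level with the total count was 0.52 over the 23 cells, against -0.15 over the 25 pEPI cells. In pEPI its level also moved with the Y-linked split, with a mean of 6.42 ± 3.92 FPKM (SD, n = 17) and a median of 5.94 FPKM in cells with Y-linked counts and 13.2 ± 7.96 FPKM (SD, n = 8) and 13.3 FPKM without, a difference within the larger SD. With every cell thinned to 1718970 counts the log2 ratio was -1.71. The summed trophectoderm markers correlated with St14 at 0.08 and with Spint1 at 0.19 over the 48 cells. Within the Y-linked classes of a branch the values ran from -0.46 to 0.54 for St14 and from -0.45 (12 pPrE cells with Y-linked counts) to 0.83 (8 pEPI cells without) for Spint1, and the part of such cells in the levels was not tested.

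Prss8 (ENSMUSG00000030800, chromosome 7, 127925716 to 127930104, minus strand) was counted in fewer than 25 cells in all, 10 in pEPI and 12 in pPrE. Its level reached 32.6 FPKM in pEPI (cell A3) and 43.1 FPKM in pPrE (cell D2), with medians of 0 and 0.236 FPKM. The cells with and without Prss8 were found in both branches, and the mean of 4.79 ± 9.39 FPKM in pEPI (SD, n = 25) and 6.74 ± 10.7 FPKM in pPrE (SD, n = 23) differed by less than either SD. Prss8 overlaps Kat8 on the opposite strand, and Smart-seq2 reads carry no strand, so reads from the overlap cannot be assigned to either gene with certainty. Plat (ENSMUSG00000031538, chromosome 8, 22757727 to 22782844, plus strand) was near the lower limit, with 166 counts in 3 pEPI cells and 26 counts in 2 pPrE cells, and 55.4% of the pEPI counts came from the single cell E7. No order of the branches is read for Plat: its log2 ratio had the opposite sign when the cells were grouped without the dendrogram.

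F3 (ENSMUSG00000028128, chromosome 3, 121723537 to 121735048, plus strand), the tissue factor gene, was counted in 5 pEPI and 7 pPrE cells. Its highest levels were 41.6 FPKM in the pEPI cell E2 and 29.7 FPKM in the pPrE cell C6, and these cells held 51.4% and 53.4% of the counts of their branch. The medians were 0 in both branches, and the means of 3.27 ± 9.42 FPKM (SD, n = 25) and 2.82 ± 6.77 FPKM (SD, n = 23) could not be told apart by the spread between cells. Thbd (ENSMUSG00000074743, chromosome 2, 148404466 to 148408188, minus strand) encodes thrombomodulin, which turns thrombin toward activation of protein C. It had 210 counts in 7 pEPI cells (28%, interval 12.1% to 49.4%) and 46 counts in the single pPrE cell E6 (4.35%, interval 0.11% to 21.9%). The intervals overlap, and at a minimum of 10 CPM (counts scaled to the total of the cell) the shares were 8% and 0%; no pEPI cell exceeded 5.13 FPKM.

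The paralogous receptors F2r and F2rl1 differed from each other in pattern. F2r (ENSMUSG00000048376, chromosome 13, 95601803 to 95618487, minus strand) ranged from 0 to 10.6 FPKM in pEPI with a median of 0, and 4 of 25 cells had a count (16%, interval 4.54% to 36.1%). In pPrE it ranged from 0 to 136.8 FPKM with a median of 18.5, and 21 of 23 cells had a count (91.3%, interval 72.0% to 98.9%). The sums were 204 counts (exact Poisson interval 177.0 to 234.0) in pEPI and 10961 counts (10757 to 11168) in pPrE, and the pEPI cells C8 and D4 held 118 and 84 of the former; the remaining pEPI cells with F2r, C7 and F4, had 1 count each. The mean of 0.728 ± 2.54 FPKM (SD, n = 25) in pEPI and 31.9 ± 36.3 FPKM (SD, n = 23) in pPrE gave a 43.8-fold ratio (log2 5.45, counting interval 5.24 to 5.66), number 52 of the tested genes toward pPrE. The size of this ratio rested on few pEPI cells: it was 71.5-fold without C8 and 100-fold without D4. It also changed with the grouping and the scale: the log2 ratio was 4.33 between the 2 Ward clusters and 3.78 as a difference of mean log2(FPKM + 1). The spread within pPrE was so wide that the difference of means was smaller than its SD, although pPrE was higher in 93.4% of the pairs of cells.

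F2rl1 (ENSMUSG00000021678, chromosome 13, 95511732 to 95525227, minus strand) lies 76575 bases from F2r on the same strand and was counted in every cell. Cells of pEPI held 5.60 to 71.5 FPKM (median 22.9) and cells of pPrE 8.69 to 57.0 FPKM (median 24.8). The pPrE cells lay inside the wider range of the pEPI cells, and the means were 26 ± 14.9 FPKM (SD, n = 25) and 25.1 ± 10.7 FPKM (SD, n = 23), a log2 ratio of -0.05. The third receptor gene of the family, F2rl2, had no count in any cell, and F2rl3 had a count in 1 pPrE cell. As F2rl1 was counted in all cells, the 25 cells with F2r counts had both receptors and the other 23 cells had F2rl1 without F2r.

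As FPKM corrects for length, the levels of the members can be ordered within a branch. In pEPI the order of mean FPKM began with Spint1, Spint2, F2rl1 and St14, and each of the first 3 steps was larger than the larger SD of the 2 genes, with the first gene higher in 23 of 25 cells at each step. From St14 downward (Tfpi, Prss8, F3, F2r, Thbd and Plat) neighbours differed by less than their spread. In pPrE the order was Tfpi, Spint1, Spint2, F2r and F2rl1, and none of these neighbours differed beyond their spread. Cell by cell, the first gene was the higher in 13, 14, 17 and 10 of 23 cells at these steps. The step from F2rl1 to Prss8, of 18.4 FPKM, was larger than either SD, and the remaining neighbours (F3, St14, Thbd, Plat) again were not separated. The pPrE order differed between the Y-linked classes: mean FPKM was 50.4 for Spint1, 42.2 for Spint2, 29.3 for Tfpi, 23.3 for F2rl1 and 13.1 for F2r in the 12 cells with Y-linked counts, and 95.3 for Tfpi, 52.4 for F2r, 43.8 for Spint1, 38.95 for Spint2 and 27.2 for F2rl1 in the 11 cells without. A pEPI cell had counts of 4 to 8 of the 10 members and a pPrE cell of 4 to 9, with a median of 6 in both.

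**Figure D2:**
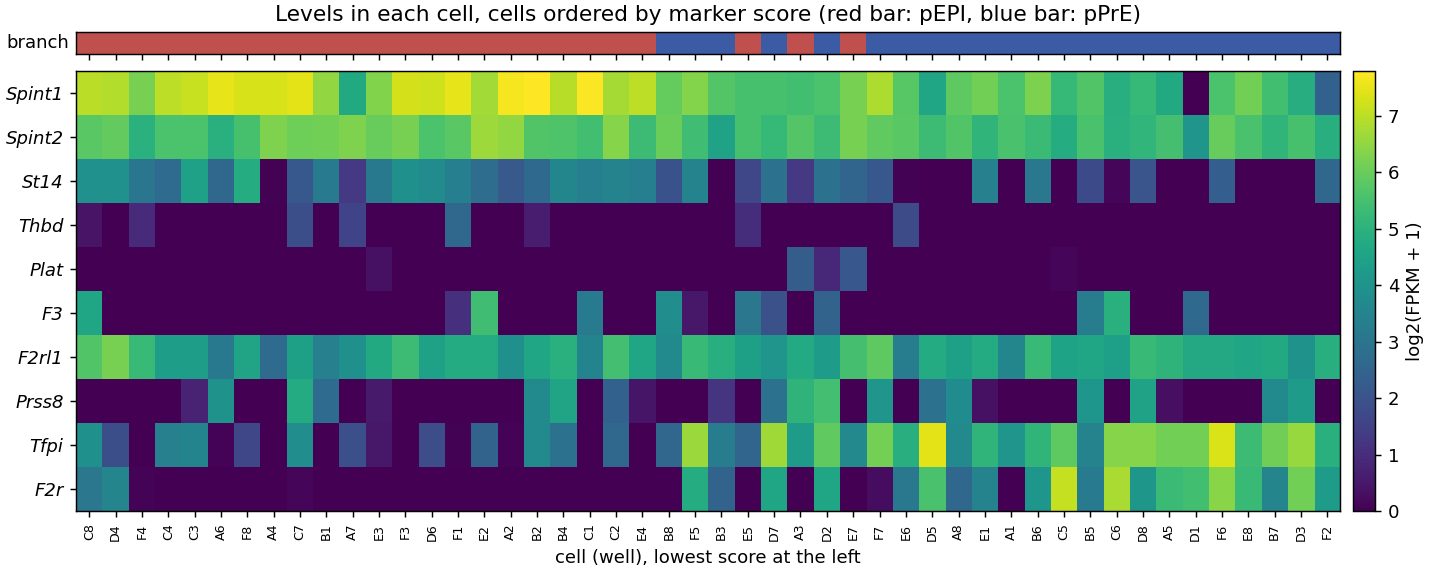
Level of each member (rows) as log2(FPKM + 1), in colour, in the 48 cells (columns, named by well) ordered by marker score from the lowest at the left, with the branch of each cell above (red, pEPI; blue, pPrE). Spint1 is bright over the pEPI cells and Tfpi and F2r over the pPrE cells, with 3 pEPI cells among the pPrE cells near the middle of the order.

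Spint1 was compared with Tfpi and F2r within each cell, as the difference of log2(FPKM + 1). Spint1 exceeded Tfpi in 25 of 25 pEPI cells, by 1.15 (A3) to 7.75 (C1) with a median of 5.01. In pPrE the difference ran from -6.12 (D1) to 3.38 (B8) with a median of -0.28, and Spint1 was the higher in 10 of 23 cells. The pEPI cells were thus all on the Spint1 side, whereas the pPrE cells lay on both sides. Spint1 exceeded F2r in 25 of 25 pEPI cells (median 7.01) and in 15 of 23 pPrE cells (median 1.10, from -5.44 in D1 to 6.55 in F7). Spint1 and Tfpi were therefore both present in most pPrE cells, and no pPrE cell other than D1 lacked Spint1.

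The members were next followed along the marker score, which orders the cells without them, although the markers and the members were measured in the same libraries. Over the 48 cells the Spearman correlation with the score was -0.73 for Spint1, -0.62 for St14 and -0.44 for Spint2, 0.73 for Tfpi and 0.68 for F2r, and 0.10 for F2rl1. These values largely restate the difference between the branches. Within pPrE the correlation was -0.54 for Spint1, 0.47 for F2r and 0.19 for Tfpi (23 cells). In the 12 of these cells with Y-linked counts it was -0.42 for Spint1, 0.83 for F2r and 0.73 for Tfpi, and in the 11 without it was -0.57, 0.45 and 0.00; these differences were not tested. Within pEPI it was -0.13 for Spint1 and 0.11 for Tfpi (25 cells); in the 17 of these cells with Y-linked counts it was -0.22 and 0.57, and in the 8 without 0.83 and -0.19. The value of -0.56 for F2r rests on the 4 cells with counts, whose scores were -2.81 to -1.57. All 4 were among the 8 pEPI cells without Y-linked counts, where the value was -0.62. The pEPI cells with F2r thus were not those nearest to pPrE by score, but this contrast cannot be told apart from the Y-linked split. The pEPI cells nearest to pPrE by score, E5, A3 and E7, all with Y-linked counts, had scores of 0.37 to 0.57 and no count of F2r. Their Tfpi levels were 4.76, 18.6 and 11.6 FPKM, that of A3 being the highest of pEPI. The next highest pEPI levels, 13.9 and 13.1 FPKM, were in C8 and C7, with scores of -2.81 and -1.57.

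**Figure D3:**
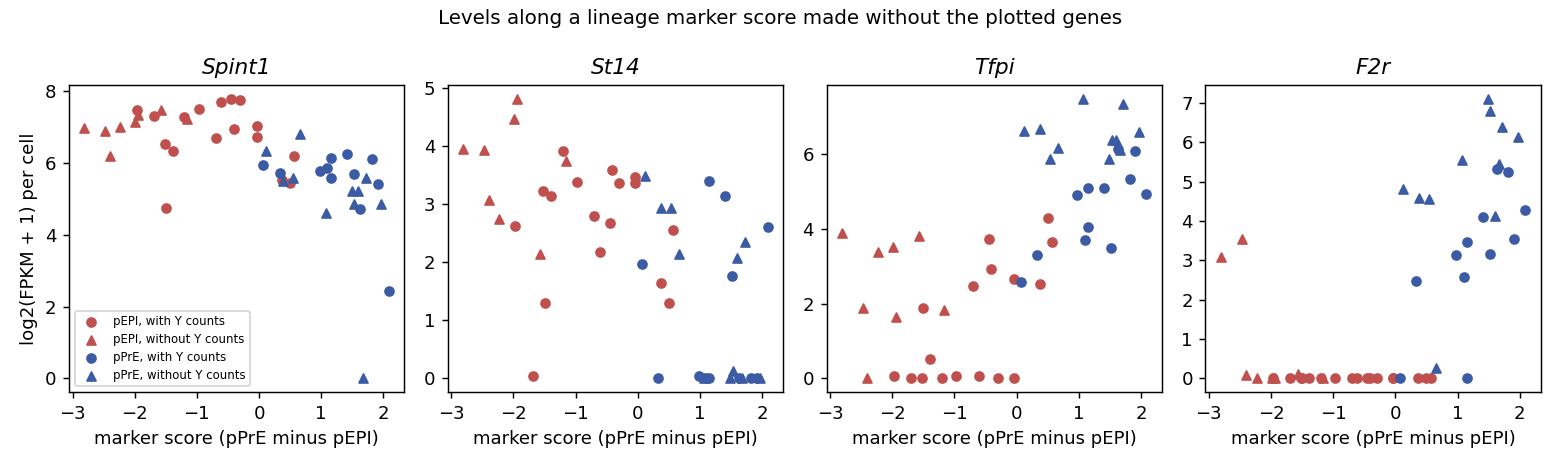
Level of Spint1, St14, Tfpi and F2r as log2(FPKM + 1) (vertical axes) against the marker score (horizontal axes, pPrE minus pEPI markers in units of standardized expression), 1 point a cell (red, pEPI; blue, pPrE; circles, with Y-linked counts; triangles, without). The pEPI cells without Y-linked counts include the only pEPI cells with F2r, and the pPrE cells without Y-linked counts lie above most others in Tfpi and F2r.

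The pPrE cells with no F2r were A1 and B8. Cell B8 had the lowest score of pPrE (0.07), the lowest Tfpi of pPrE (4.92 FPKM) and 202.2 FPKM of Nanog, the pluripotency factor of the early epiblast. Cell A1 had 307.7 FPKM of Nanog, 2.80 FPKM of Gata6 and a score of 1.15. Both cells had more Nanog than the mean pPrE cell (43.7 FPKM), and both had Y-linked counts. Cell F7, without Y-linked counts, had only 5 counts of F2r (0.207 FPKM), with a score of 0.66 and 70.2 FPKM of Tfpi. No relation between Nanog and F2r is read from these cells. The difference between the branches was also described in the cells that held both Nanog and Gata6 at 10 CPM or more, 18 in each branch. In these, mean Spint1 was 119 ± 56.4 FPKM in pEPI and 49.8 ± 24.7 FPKM in pPrE (SD, n = 18 each), and mean Tfpi was 4.96 ± 5.50 and 64.9 ± 49.1 FPKM. Mean F2r was 34.3 ± 40.3 FPKM in these pPrE cells, and no such pEPI cell exceeded 0.0624 FPKM.

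Tfpi and F2r were high in many of the same cells. At 1 count, 24 cells had both genes, 18 had Tfpi only, the pEPI cell F4 had F2r only and 5 had neither. The Spearman correlation of their levels was 0.81 over the 48 cells, 0.70 over the 23 pPrE cells and 0.19 over the 25 pEPI cells. Within pPrE it was 0.85 over the 12 cells with and 0.04 over the 11 cells without Y-linked counts; this difference was not tested. A correlation across cells is a description here: the cells share embryos that are not labelled, and over the 48 cells Tfpi and F2r correlated with the total count at 0.17 and 0.06.

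Both levels also moved with the Y-linked split itself. In pPrE, Tfpi ranged from 4.92 to 68.9 FPKM in the 12 cells with Y-linked counts (median 29.5) and from 57.1 to 177.5 FPKM in the 11 cells without (median 82.0). F2r ranged from 0 to 38.9 FPKM (median 9.06) in the former and from 0.207 to 136.8 FPKM (median 42.4) in the latter. The cells without Y-linked counts were thus higher in both genes, with an overlap for Tfpi between 57.1 and 68.9 FPKM only. In pEPI, 0 of 17 cells with Y-linked counts had F2r, which allows a share of up to 17.6% (3 of 17 cells, the limit taken for a count of 0), against 4 of 8 cells without. The mean of Tfpi in pPrE was 29.3 ± 21.3 FPKM (SD, n = 12) with and 95.3 ± 39.5 FPKM (SD, n = 11) without Y-linked counts, and that of F2r 13.1 ± 12.9 and 52.4 ± 42.6 FPKM. The difference in Tfpi exceeded the larger SD and that in F2r did not. The median total count of these pPrE cells was 3935464 with and 4750650 without Y-linked counts, and FPKM is scaled to depth; whether sex, embryo or another property of the cells goes with these levels was not tested.

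**Figure D4:**
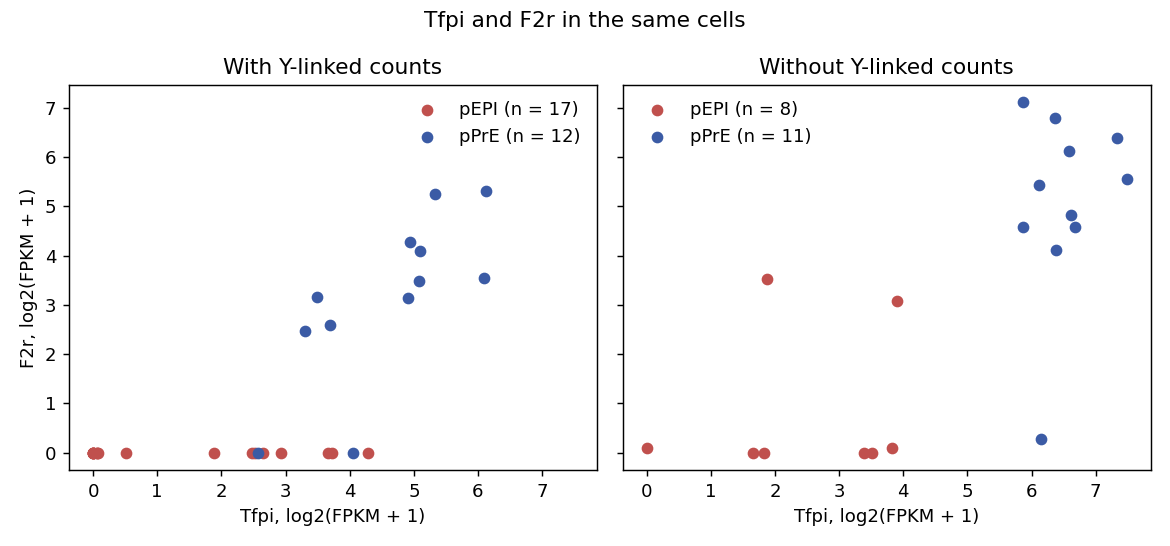
F2r (vertical axis) against Tfpi (horizontal axis), both as log2(FPKM + 1), in cells with Y-linked counts (left, 17 pEPI and 12 pPrE) and without (right, 8 pEPI and 11 pPrE). At the left the pPrE points follow a line and no pEPI cell has F2r; at the right 10 of the 11 pPrE points form a cloud at high levels of both genes, and the cell F7 lies near 0 for F2r.

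Within both sets Tfpi was higher in pPrE, and Spint1 and St14 were higher in pEPI. The log2 ratio of Tfpi was 2.90 in cells with and 3.81 in cells without Y-linked counts, that of Spint1 -1.31 and -1.61, and that of St14 -1.48 and -2.09. F2r had a log2 ratio of 4.53 in cells without Y-linked counts, and with Y-linked counts no ratio could be formed because the pEPI cells had no count. The ratio had opposite signs in the sets for Prss8 (-0.59 with and 1.55 without), F3 (-0.91 and 0.42) and F2rl1 (0.02 and -0.27).

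The partners in each enzyme system were also compared cell by cell. All 38 cells with St14 counts also had Spint1, Spint2 and F2rl1. For Spint2 and F2rl1 this follows from their being counted in all 48 cells. Spint1 was counted in 47 cells, and the cell without it, D1, had no St14 count either. Of the pPrE cells, 13 had St14 with Spint1, 9 had Spint1 alone and 1 had neither. Spint1 and St14 levels correlated at 0.65 over all cells, 0.45 within pPrE and 0.20 within pEPI. In cells with and without Y-linked counts the values were 0.39 and 0.83 in pPrE and 0.32 and 0.00 in pEPI, and in pPrE both genes moved with the total count (0.33 for Spint1 and 0.52 for St14). St14 met Prss8 in 16 cells, and 22 cells had St14 without Prss8. Of the 12 cells with F3, 11 also had Tfpi, and 31 cells had Tfpi without F3. As F3 was counted in few cells and Tfpi in most, no relation between them is read from these numbers.

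The genes most like Spint1, Tfpi and F2r were ranked by the Spearman correlation of log2(FPKM + 1) over the 48 cells among 9081 genes with counts in at least 24 cells. Tfpi was closest to Serpinh1 (0.84), a collagen chaperone, then F2r (0.81), the lysosomal protease gene Ctsl (0.80), Ckap4 (0.79) and the FGF receptor gene Fgfr2 (0.79). F2r was closest to Dnmt3b (0.83), a de novo DNA methyltransferase, then Tfpi (0.81), Hspg2 (0.80), which encodes the basement membrane proteoglycan perlecan, Dok2 (0.78) and Efna4 (0.76). Spint1 was closest to Gm12346 (0.78), the nucleotide synthesis gene Prps1 (0.77), Hsp90aa1 (0.76), Smagp (0.74) and Tmem41b (0.74). The correlations over all cells include the difference between the branches, and those of Spint1 with its 5 genes were 0.46 to 0.61 within pPrE and 0.21 to 0.52 within pEPI. Those of F2r with its 5 genes were -0.22 to 0.45 within pEPI, where 4 cells had F2r. Within pPrE the correlation of F2r with Dnmt3b was 0.89 over 23 cells, and 0.75 and 0.78 in the cells with and without Y-linked counts, whereas that of Tfpi with Serpinh1 was 0.71. Mean Dnmt3b was 14.8 FPKM in pEPI and 71.6 FPKM in pPrE.

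The other genes of each system were taken from lists. The members are also on these lists, and their calls restate their selection; without them, 17 genes of the 6 lists were tested, of which 3 were at least 2-fold higher in pPrE, 1 was higher in pEPI and 13 were within 2-fold (median log2 ratio 0.26), beside 6.2% and 9.03% of all tested genes. With counts this small nothing particular to the lists is read from them. Of 14 genes with Kunitz domains, 7 had counts and 6 were tested: Tfpi and Spint5 (log2 ratio 1.13) were at least 2-fold higher in pPrE, Spint1 was higher in pEPI, and Spint2, Spint4 (0.43) and Aplp2 (-0.34), the most abundant of the non-members, were within 2-fold. The list median was 0.05, and 0.43 over the 3 genes that are not members. Tfpi2, the close paralogue of Tfpi, had no count. Of 22 membrane-anchored serine proteases, 9 had counts and 3 were tested, with St14 higher in pEPI and Prss8 and Tpsg1 (-0.83) within 2-fold. Most other members of the family, Tmprss2, Tmprss4 and Tmprss6 among them, had no count in any cell, and Hpn was counted in 3 pEPI and 5 pPrE cells.

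Of 11 genes of substrates of matriptase and prostasin or of partners of these substrates, 3 were tested and had a median log2 ratio of -0.76 (-1.37 without F2rl1). Cldn7, a claudin of tight junctions, had 74.5 ± 40.3 FPKM in pEPI (SD, n = 25) and 18.9 ± 14.8 FPKM in pPrE (SD, n = 23), a log2 ratio of -1.98. Epcam, an adhesion molecule that binds claudin-7, had 250.5 ± 113.6 FPKM in pEPI and 148.4 ± 55.4 FPKM in pPrE, a log2 ratio of -0.76 within 2-fold. F2rl1 is the other tested gene of this list, on which Cldn7 and the receptor genes Met and Mst1r stand as partners and not as substrates. Met and Hgf had no count, and the sodium channel genes Scnn1a, Scnn1b and Scnn1g together had counts in 1 cell.

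Of 11 receptors and partners of the PAR family, 7 were tested, with a median log2 ratio of 0.24. F2r and Gna12 (1.31) were past 2-fold toward pPrE. The G protein genes Gna13 (0.15), Gna11 (0.01) and Gnaq (0.48) and the guanine nucleotide exchange factor gene Arhgef1 (0.24) were within 2-fold. Gna13, the most abundant of these G protein genes, had a mean of 14 FPKM in pEPI and 15.5 FPKM in pPrE and was counted in every cell.

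Of 29 coagulation and anticoagulant genes, 13 had counts and 6 were tested, with a median log2 ratio of 0.65. Only Tfpi was past 2-fold; F3, Procr (0.75), Ggcx (0.67), Pros1 (0.64) and Vkorc1 (0.26) were within it. Pros1, which encodes the anticoagulant protein S, was the most abundant, at 50.2 ± 27.4 FPKM in pEPI (SD, n = 25) and 78.3 ± 29.6 FPKM in pPrE (SD, n = 23), and was counted in every cell. The proteases of the cascade were absent or nearly so: F7, F9, F10, F11 and F12 had no count, and F2, the thrombin gene, was counted in 2 pPrE cells at a mean of 0.324 FPKM. Of 11 genes of plasminogen activation, 2 were tested: Serpine2, an inhibitor of thrombin and plasminogen activators, had 3.57 ± 3.52 FPKM in pEPI and 11.6 ± 6.25 FPKM in pPrE (log2 ratio 1.70), and Plaur, the urokinase receptor, had 26.8 ± 25 and 16 ± 13 FPKM (-0.75). Plg, the plasminogen gene, had no count.

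**Figure D5:**
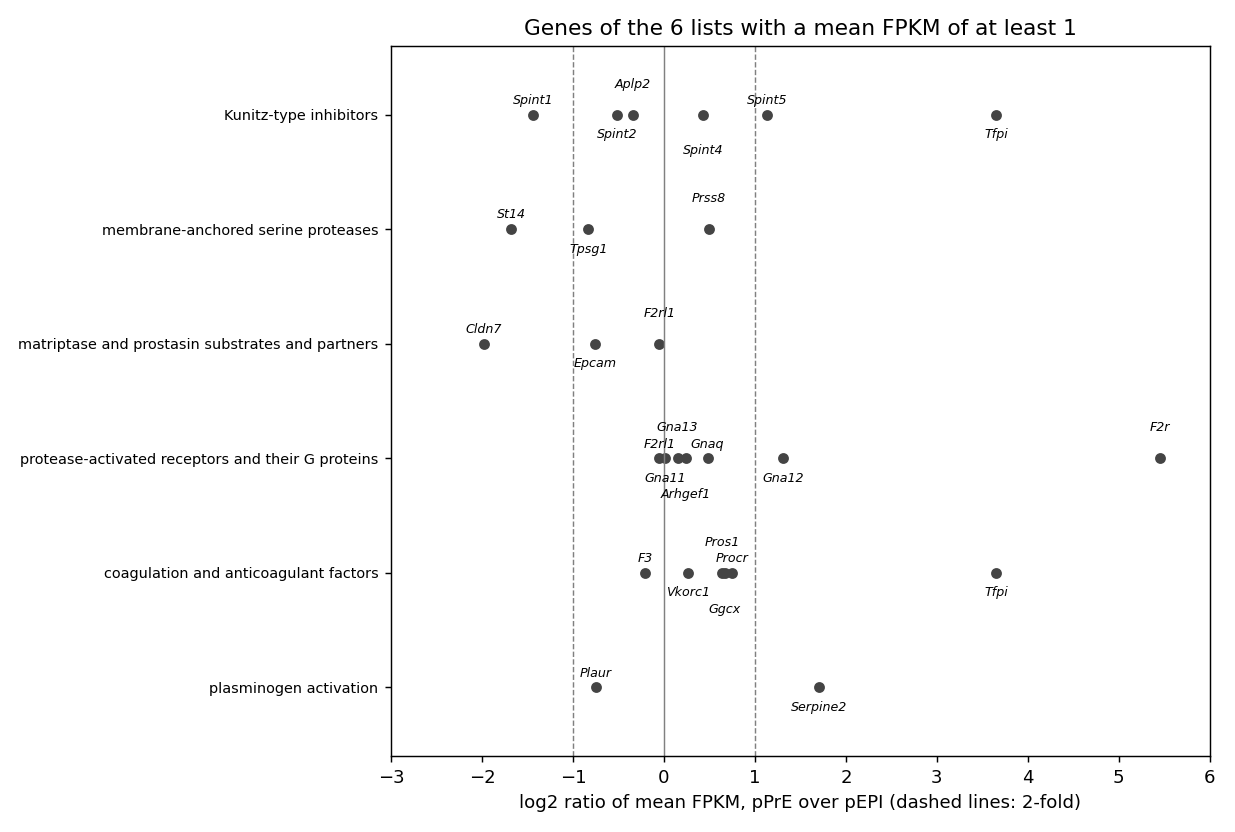
Log2 ratio of mean FPKM, pPrE over pEPI (horizontal axis), of the genes of 6 lists (rows) with a mean of at least 1 FPKM, 1 point a gene; the dashed lines mark 2-fold. Tfpi and F2r lie far to the pPrE side of their lists, St14, Cldn7 and Spint1 lie past 2-fold on the pEPI side, and most other partners lie between the lines.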

How the data were processed

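Single ICM cells were profiled by Smart-seq2 at E3.75, 48 wells in all. The deposited values are raw counts: the authors aligned reads to mm10, counted them on Ensembl 87 genes with HTSeq (the labels also name STAR) and left out libraries under 500000 mapped reads. Versions and the strand setting are not given in the sources used here. Totals per cell stand in the report. Counting intervals treat each read as an independent count and leave out the spread between cells. As PCR copies of 1 molecule were counted separately, these intervals are too narrow even for counting error.

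FPKM was computed from the summed exon length in GENCODE M21 (GRCm38) and a library size by the median of ratios; 85 genes without a length were left out. Log2 values used a pseudocount of 1. Genes with a mean of at least 1 FPKM were tested against a 2-fold threshold; cells are not replicates, so no p-value was computed. Shares above 0 have exact Clopper-Pearson intervals, which treat cells as independent draws; exact Poisson intervals are given for summed counts, and that of a log2 ratio is approximate. Correlations, 45 between pairs of members among them, carry no p.

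Named genes were the members, list genes past 2-fold or of highest mean, the markers, and the 5 genes most like Spint1, Tfpi and F2r; other list genes were named after their values were seen. The members and lists were chosen with earlier results of these data known. Alternatives changed the library size, depth, grouping, filter, pseudocount and the cells left out; the levels within Y-linked classes of a branch and F2r without the cell C8 or D4 were chosen after seeing the data. The ratio was tried on simulated counts with known changes. Its interval was tried only on simulated Poisson counts without a difference, the model that it assumes, which does not show its coverage in these cells. Versions were Python 3.11.15, scipy 1.17.1, numpy 2.4.6, matplotlib 3.10.9 and pandas 2.3.3.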

Additional observations from a re-analysis of the deposited data

How the results depend on the processing

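The cells are 1 sample from 3 unlabelled embryos, so no value carries a replicate error. Spint1, Tfpi and St14 (15 alternatives each) and F2r (16) kept their direction and stayed past 2-fold, Spint2 (15) kept its direction within 2-fold, and Thbd (12) kept its direction. Members near 0 did not keep a sign: the ratio of F2rl1 was above 0 in 6 of 15 alternatives, that of F3 above 0 in 4 of 15 (-0.91 to 0.99) and that of Prss8 below 0 in 2 of 15 (-0.59 without the cells of well letter D and in cells with Y-linked counts). The ratio ranged from -1.79 to -1.11 for Spint1, from 2.90 to 4.97 for Tfpi, from 3.78 to 6.65 for F2r, from -3.16 to -1.43 for St14, from -0.61 to -0.35 for Spint2 and from -0.27 to 0.09 for F2rl1. The highest values for F2r, 6.65 and 6.51, were those without the pEPI cell D4 and without all cells of well letter D. Plat turned its sign, from -2.83 to 3.90 with 2 Ward clusters and to 4.65 with the sign of the marker score as grouping; these groupings move the pEPI cells A3 and E7, which hold most of its counts, to the other side. Prss8 passed 2-fold with the 2 Ward clusters (1.22) and in cells without Y-linked counts (1.55). As differences of mean log2 values with pseudocounts of 1 and 0.1, Plat was at -0.15 and -0.31 and Thbd at -0.28 and -0.85. The share of cells with F2r on the pPrE side was 65.6% in the Ward cluster of 32 cells. Genes at least 2-fold higher in pPrE numbered 675, and 2119 without a filter on the mean or 186 at a mean FPKM of at least 5; those higher in pEPI numbered 982, and 2604 or 300, where the filter sets how many genes are tested. The F2r ratio in cells with Y-linked counts had no value, because no such pEPI cell had a count. The correlation of F2rl1 with the marker score was 0.34 in cells with and -0.21 in cells without Y-linked counts. At 10 CPM in place of 1 count, Thbd was found in 8% of pEPI cells and 0% of pPrE cells, and Plat in 0% of pPrE cells.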
